A study of Mus musculus with 6 samples.

Results

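The cluster of miR-322, miR-503, miR-351, miR-542 and miR-450 is a row of miRNA genes on the X chromosome of the mouse. Its members here are 10 mature miRNAs of the 1506 that were listed, taken by name: both arms of miR-322, miR-503, miR-542 and miR-450b, and the 5p arms of miR-351 and miR-450a. They were chosen by their place in the cluster and with the differences between fibrinogen-treated and control OPCs already known. Their differences between the groups are therefore given as a description. Tests were run over all miRNAs compared, and the members' calls are listed without being read as evidence about the members.

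The miRNAs were measured by small RNA sequencing of cultured oligodendrocyte progenitor cells (OPCs), the cells that mature into the oligodendrocytes (OLs) that form myelin. The OPCs came from the cerebral cortex of newborn wild-type C57BL/6 mice and were separated from other glia by shaking. Fibrinogen, the plasma protein that forms clots, had been added at 2.5 mg/mL to the OPCs of 3 libraries, and the other 3 libraries were of control OPCs. The comparison asks which miRNAs differ when OPCs meet fibrinogen, as they may after a break of the blood-brain barrier in stroke. The table's headers number the libraries of each group by mouse, from 1 to 3. No source used here says whether a number stands for the same mouse in both groups, whether one mouse or pooled pups gave a culture, how long these cultures were treated or whether they were deprived of oxygen and glucose, as other OPC cultures of the study were, so errors measure the spread between these libraries, which may be technical.

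A miRNA is cut from a hairpin whose 2 arms, 5p and 3p, can each be loaded into an Argonaute protein, and usually one arm is kept far more than the other. The loaded miRNA finds its target mRNAs mainly through its seed, which is bases 2 to 8. In mouse myoblasts, this cluster is known for miR-322 and miR-503, which help cells leave the cell cycle by acting on the phosphatase gene Cdc25a, and increase as muscle cells differentiate. The counterpart of miR-322 in humans is called miR-424. miR-351 shares its seed with miR-125, a family that is abundant in neural tissue.

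By the RefSeq annotation of GRCm38.p6 (mm10), the 7 hairpins of the cluster lie on the minus strand of chromosome X within 6353 bp. In the direction of transcription the order is Mir322 (chrX:53054255-53054349), Mir503 (chrX:53053984-53054054), Mir351 (chrX:53053255-53053353), Mir542 (chrX:53049403-53049487), Mir450-2 (chrX:53048299-53048367), Mir450-1 (chrX:53048154-53048244) and Mir450b (chrX:53047997-53048078). The first 3 sit within 1095 bp, a gap of 3767 bp follows, and the last 4 sit within 1491 bp. In the GENCODE annotation of GRCm39, Mir322, Mir503 and Mir351 lie inside the long noncoding RNA gene Mir503hg, where Mir322 is exonic in both of the transcripts that span it and the others in 1 of 2. Mir542 and the Mir450 hairpins lie in no annotated gene there.

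The mature sequences of all 10 members were found in RefSeq (GRCm38.p6) and are shown because the members differ most plainly in their seeds, which are in capitals, 5′ to 3′.
miR-322-5p: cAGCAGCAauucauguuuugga
miR-322-3p: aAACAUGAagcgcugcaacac
miR-503-5p: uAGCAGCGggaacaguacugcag
miR-503-3p: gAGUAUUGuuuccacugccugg
miR-351-5p: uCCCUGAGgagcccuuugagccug
miR-542-5p: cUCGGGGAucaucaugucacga
miR-542-3p: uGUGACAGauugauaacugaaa
miR-450a-5p: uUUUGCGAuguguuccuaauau
miR-450b-5p: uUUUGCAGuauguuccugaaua
miR-450b-3p: aUUGGGAAcauuuugcaugcau

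No seed is shared by any pair of members. Counting positions from 1 at the 5′ end, the seeds of miR-322-5p and miR-503-5p hold the same base at 6 of 7 positions and differ by A8G, with the base of miR-322-5p first. miR-450a-5p and miR-450b-5p hold the same base at 5 of 7 seed positions and differ by G7A and A8G, with the base of miR-450a-5p first. miR-322-5p has the exact seed of miR-16-5p, and miR-351-5p has the exact seed of miR-125b-5p.

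The 3 hairpins below are shown because their arms are compared further on, with the 5p arm and then the 3p arm in capitals.
Mir322: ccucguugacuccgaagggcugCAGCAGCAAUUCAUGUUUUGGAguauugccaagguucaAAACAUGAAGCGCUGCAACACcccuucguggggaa
Mir503: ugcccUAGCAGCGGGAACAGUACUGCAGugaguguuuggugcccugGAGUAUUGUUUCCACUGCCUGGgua
Mir542: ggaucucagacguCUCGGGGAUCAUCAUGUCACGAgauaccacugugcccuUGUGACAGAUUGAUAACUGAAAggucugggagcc

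The libraries held 11897645 to 14847034 reads assigned to listed miRNAs, and levels are given as TPM, which here is the share of a library's reads scaled to a common total (RPM), with no correction for length. A miRNA was compared where 3 or more libraries reached 1 TPM, which left 607, and limma was run on log2(TPM + 1). Of these, 13 were higher and 4 lower in fibrinogen-treated OPCs at an adjusted p under 0.05 (Benjamini-Hochberg). The median log2 fold change of the 607 was 0.13, and 0.0031 after median-of-ratios scaling, and the changes below are to be read against that shift. The summed level of 6 miRNAs of the OL lineage was 11456 to 14340 TPM in fibrinogen-treated OPCs and 12246 to 16652 TPM in control OPCs. Most of that sum was miR-138-5p, and miR-219a-2-3p went the other way. The latter had 462 to 695 TPM in fibrinogen-treated OPCs and 222 to 359 TPM in control OPCs, with a log2 fold change of 0.91 (SE 0.23). Of the 5 compared, 3 had log2 fold changes above 0, where 62.9% of all 607 did. By limma or edgeR 0 were called, and DESeq2 called 1 higher, where it called 27 higher and 37 lower over all 607. The summed level of 7 neuronal miRNAs was 97756 to 102002 TPM in fibrinogen-treated OPCs and 120495 to 128104 TPM in control OPCs, so neuronal miRNAs were also abundant in these cultures. Their sum was lower with fibrinogen, without overlap. Of the 7, limma called miR-128-3p lower and 0 higher. DESeq2 called 4 lower and 0 higher, where over all 607 it called 37 lower and 27 higher. Log2 fold changes were above 0 for 2 of the 7, where they were for 62.9% of all 607. Whether neuronal cells have a part in the differences described below was not tested.

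Together the 10 members took 443, 460 and 484 TPM in fibrinogen-treated libraries 1, 2 and 3, against 255, 235 and 352 TPM in control libraries 1, 2 and 3. The lowest fibrinogen-treated library was above the highest control library. The mean was 462 ± 20.5 TPM in fibrinogen-treated OPCs and 281 ± 62.9 TPM in control OPCs (SD, n = 3 each), which is 0.0472% ± 0.00175 and 0.0281% ± 0.00648 of the listed reads. The cluster is thus a minor part of the miRNA of these cells. Most of it was a single arm, miR-322-5p, which made up 74.6% ± 2.02 of the cluster in fibrinogen-treated OPCs and 78.4% ± 1.01 in control OPCs. In bulk libraries such as these, fewer cells of a type and less RNA per cell cannot be told apart.

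miR-322-5p, the arm with the seed of miR-16, had 323, 354 and 358 TPM in fibrinogen-treated OPCs and 202, 185 and 272 TPM in control OPCs. Every fibrinogen-treated library was above every control library, and control library 3 stood above the other controls. The mean was 345 ± 19.2 TPM in fibrinogen-treated OPCs and 220 ± 46.4 TPM in control OPCs, a ratio of 1.57, and the log2 fold change was 0.67 (SE 0.17), which was not called. With 2195 to 4923 reads in a library, it was counted far more precisely than any other member.

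miR-322-3p, the other arm of the same hairpin, had 11.1, 10.9 and 15.0 TPM in fibrinogen-treated OPCs and 4.36, 5.13 and 6.55 TPM in control OPCs. There was no overlap, and library 3 was the highest in each group. The mean was 12.3 ± 2.31 TPM in fibrinogen-treated OPCs and 5.35 ± 1.12 TPM in control OPCs, with a log2 fold change of 1.07 (SE 0.21), so the rarer arm had the larger fold change of the pair.

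miR-503-5p, whose best known targets are cell cycle genes, had 24.5, 19.7 and 28.6 TPM in fibrinogen-treated OPCs and 11.6, 7.99 and 7.76 TPM in control OPCs. The lowest fibrinogen-treated library was above the highest control, and control library 3 was here the lowest control and not the highest. The mean was 24.3 ± 4.44 TPM in fibrinogen-treated OPCs and 9.10 ± 2.13 TPM in control OPCs, and the log2 fold change of 1.33 (SE 0.22) was the largest of the 10 members on this scale, though miR-542-5p had a larger ratio of means, 2.71 against 2.66, and a larger fold change in both edgeR tests and DESeq2.

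miR-503-3p, the less abundant arm of that hairpin, had 5.75, 7.04 and 7.57 TPM in fibrinogen-treated OPCs and 2.53, 2.35 and 4.01 TPM in control OPCs. Again no libraries of the groups overlapped, and control library 3 was the highest control. The mean was 6.79 ± 0.938 TPM in fibrinogen-treated OPCs and 2.97 ± 0.910 TPM in control OPCs, with a log2 fold change of 0.99 (SE 0.22).

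miR-351-5p, which carries the miR-125 seed, had 20.7, 16.8 and 23.4 TPM in fibrinogen-treated OPCs and 7.84, 6.39 and 9.83 TPM in control OPCs. All fibrinogen-treated libraries were above all controls. The mean was 20.3 ± 3.33 TPM in fibrinogen-treated OPCs and 8.02 ± 1.73 TPM in control OPCs, with a log2 fold change of 1.25 (SE 0.21). Its 3p arm, miR-351-3p, was listed with 0, 2 and 5 reads in fibrinogen-treated libraries and with 0 reads in all 3 control libraries, where 0 reads allow up to 0.201 to 0.252 TPM in a library. That limit is set at 3 reads and covers counting error only.

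miR-542-3p, the abundant arm of its hairpin, which is known in human cells to act on the apoptosis inhibitor survivin, had 45.3, 41.3 and 38.6 TPM in fibrinogen-treated OPCs and 20.4, 21.1 and 40.7 TPM in control OPCs. Here the groups overlapped, because control library 3 was above fibrinogen-treated library 3 and at 1.96 times the mean of the other 2 controls. The mean was 41.7 ± 3.38 TPM in fibrinogen-treated OPCs and 27.4 ± 11.5 TPM in control OPCs, with a log2 fold change of 0.66 (SE 0.27).

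miR-542-5p was near the limit of detection, with 1.57, 2.08 and 2.04 TPM in fibrinogen-treated OPCs and 0.792, 0.505 and 0.802 TPM in control OPCs. These levels rest on 21, 29 and 25 reads in fibrinogen-treated libraries and on 10, 6 and 12 reads in control libraries. The groups did not overlap, but the miRNA entered the comparison only through its 3 fibrinogen-treated libraries, since no control library reached 1 TPM. The log2 fold change was 0.77 (SE 0.17), and adding 1 TPM before the logarithm shrinks it: the ratio of the means was 2.71.

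miR-450a-5p, which can come from both Mir450-1 and Mir450-2, had the smallest difference of the members, with 5.08, 2.44 and 3.26 TPM in fibrinogen-treated OPCs and 2.22, 3.20 and 5.22 TPM in control OPCs. The groups overlapped fully. The mean was 3.59 ± 1.35 TPM in fibrinogen-treated OPCs and 3.54 ± 1.53 TPM in control OPCs, and the log2 fold change was 0.029 (SE 0.31), which became -0.071 after median-of-ratios scaling. Its read numbers were even in 6 of 6 libraries, so each read may have been entered under both hairpins, which would raise its level and leave its ratio as it is. Its 3p arms were rarer, with 7, 1 and 4 reads of miR-450a-1-3p and 13, 5 and 7 reads of miR-450a-2-3p in fibrinogen-treated libraries, and 1, 5 and 1 reads of miR-450a-1-3p and 2, 4 and 4 reads of miR-450a-2-3p in control libraries.

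miR-450b-5p had 3.96, 4.60 and 5.29 TPM in fibrinogen-treated OPCs and 1.98, 1.77 and 3.81 TPM in control OPCs. The groups did not overlap, though control library 3 came close to the lowest fibrinogen-treated library and was at 2.04 times the mean of the other controls. The mean was 4.62 ± 0.668 TPM in fibrinogen-treated OPCs and 2.52 ± 1.12 TPM in control OPCs, with a log2 fold change of 0.71 (SE 0.25). miR-450b-3p had 1.94, 1.73 and 1.87 TPM in fibrinogen-treated OPCs and 1.27, 1.60 and 1.40 TPM in control OPCs. This was 26, 24 and 23 reads in fibrinogen-treated libraries and 16, 19 and 21 reads in control libraries, and although the groups did not overlap the log2 fold change was only 0.23 (SE 0.16).

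**Figure D1:**
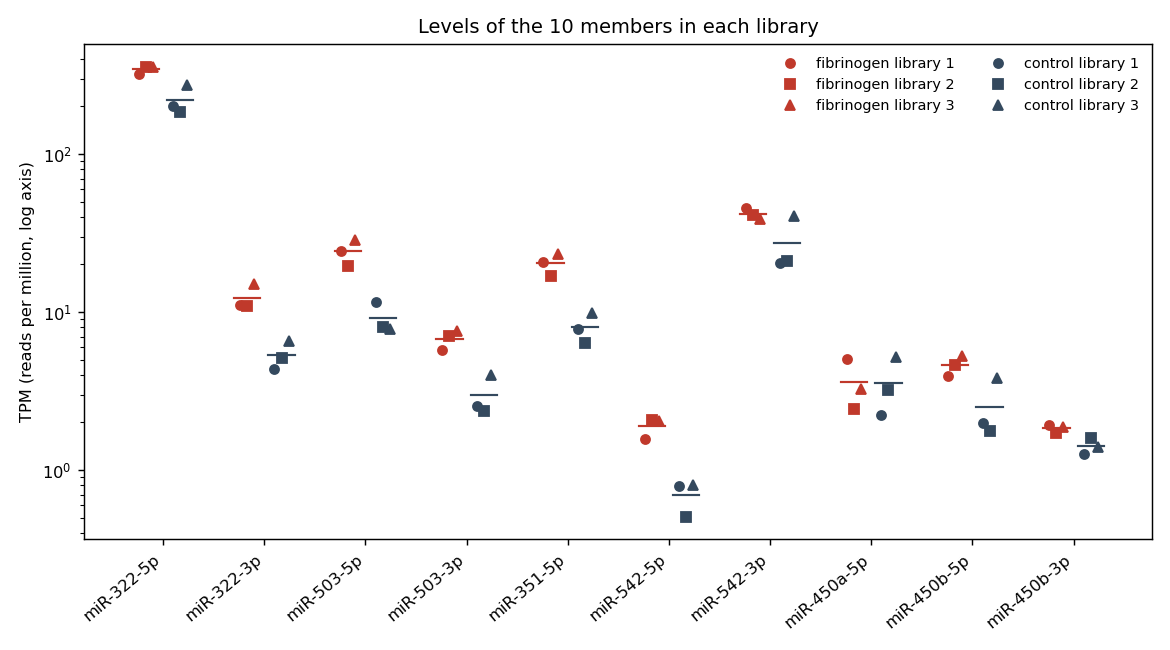
Level of each of the 10 members in TPM (log axis) in the 3 fibrinogen-treated libraries (red) and the 3 control libraries (dark blue), with a marker shape for each library number and a line at the group mean. The groups are apart for 8 members and overlap for miR-542-3p and miR-450a-5p, and control library 3 (dark triangle) is the highest control for 8 members.

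In all, 8 of the 10 members had every fibrinogen-treated library above every control library, where 24.4% of all 607 miRNAs did so. Among the 8 is miR-542-5p, which entered the comparison only through its fibrinogen-treated libraries, since no control library reached 1 TPM. Its lack of overlap was thus fixed by the filter, and it is also in the unadjusted count and the median below. At an adjusted p under 0.05 in limma, 3 members were called higher, which were miR-322-3p, miR-503-5p and miR-351-5p, where 2.14% of all 607 were. After median-of-ratios or TMM scaling miR-322-3p was no longer called, and 2 members were. No member was called lower by limma, by either edgeR test or by DESeq2. At an unadjusted p under 0.05 in limma, 8 members were higher, where 20.1% of all 607 were, and 0 were lower. These shares come from the comparison that the members were selected on, so nothing is read from them. The count of calls rests on few libraries: it was 0 without any 1 of the fibrinogen-treated libraries or without control library 2, 1 without control library 1 and 7 without control library 3. Without control library 3 the calls increased over all miRNAs too, to 39 higher of 596 compared, against 13 of 607 with it. The median log2 fold change of the members was 0.74, beside 0.13 for all 607, and after median-of-ratios scaling it was 0.65, beside 0.0031.

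By position, the 5 arms of Mir322, Mir503 and Mir351 had log2 fold changes of 0.67 to 1.33, with a median of 1.07. The 5 arms of Mir542, Mir450-1, Mir450-2 and Mir450b, on the other side of the gap, had log2 fold changes of 0.029 to 0.77, with a median of 0.66. These ranges overlap between miR-322-5p at 0.67 and miR-542-5p at 0.77, with miR-450b-5p at 0.71 between them. All arms beyond the gap but miR-542-3p were at a few TPM, where the added 1 TPM understates a fold change. The share of G and C bases (GC content) was 51.6% in Mir322, 54.9% in Mir503 and 51.8% in Mir542. It was 30.5% to 36.2% in the Mir450 hairpins. After a correction for it, arms of Mir322 and Mir503 had log2 fold changes of 0.44 to 1.04, and arms beyond the gap 0.19 to 0.92. miR-351-5p was not covered, and the part of GC content in the contrast was not tested.

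**Figure D2:**
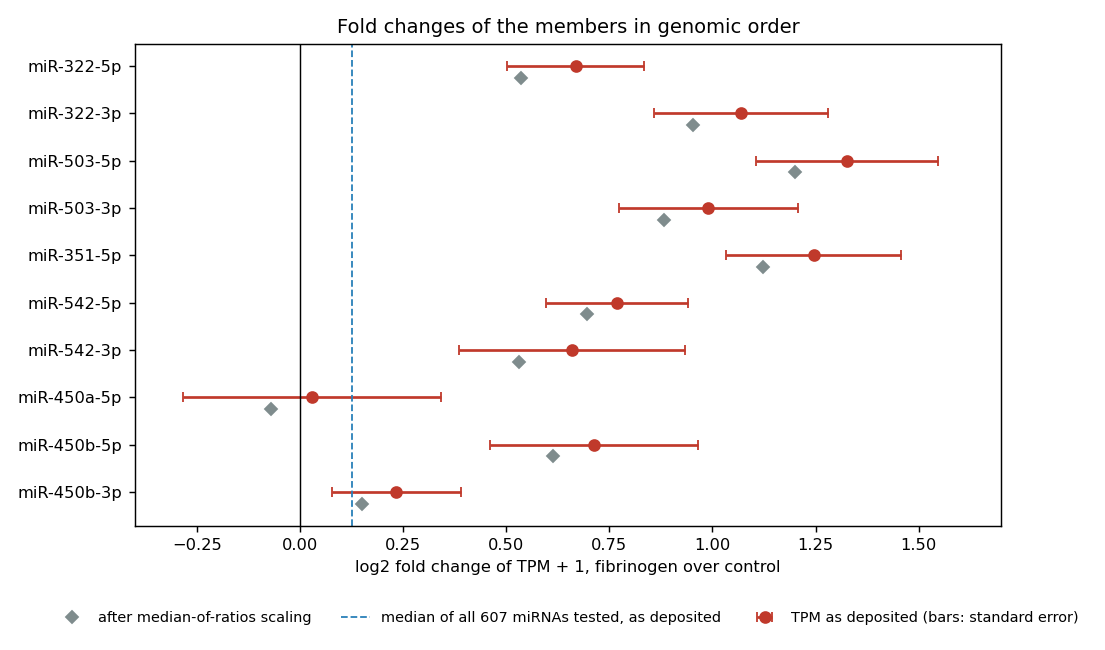
Log2 fold change of TPM + 1, fibrinogen-treated over control OPCs, for the members in genomic order from Mir322 at the top, with limma's standard error as bars, and the same value after median-of-ratios scaling as diamonds. The dashed line is the median of all 607 miRNAs, 0.13. On this scale miR-503-5p is highest at 1.33, and miR-450a-5p is at 0.029, and at -0.071 after scaling.

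Within each group, the members varied together in part. Among the controls, library 3 was the highest for 8 of 10 members, the exceptions being miR-503-5p and miR-450b-3p, and it was the highest control for 43.0% of all 607 miRNAs. Its excess over the mean of control libraries 1 and 2 was uneven: 2.04 times for miR-450b-5p, 1.96 times for miR-542-3p and 1.93 times for miR-450a-5p, but 1.41 times for miR-322-5p and 0.794 times for miR-503-5p. Control library 3 was also the most deeply sequenced of the 6, and whether depth has a part in this was not tested. Among fibrinogen-treated libraries, library 3 was the highest for 6 members, library 1 for 3 and library 2 for 1, and library 3 was the highest for 46.3% of all 607 miRNAs. So the members did not follow 1 order of libraries within either group. miR-542-3p had its highest fibrinogen-treated value in library 1, while miR-322-3p, miR-503-5p, miR-503-3p and miR-351-5p had theirs in library 3.

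**Figure D3:**
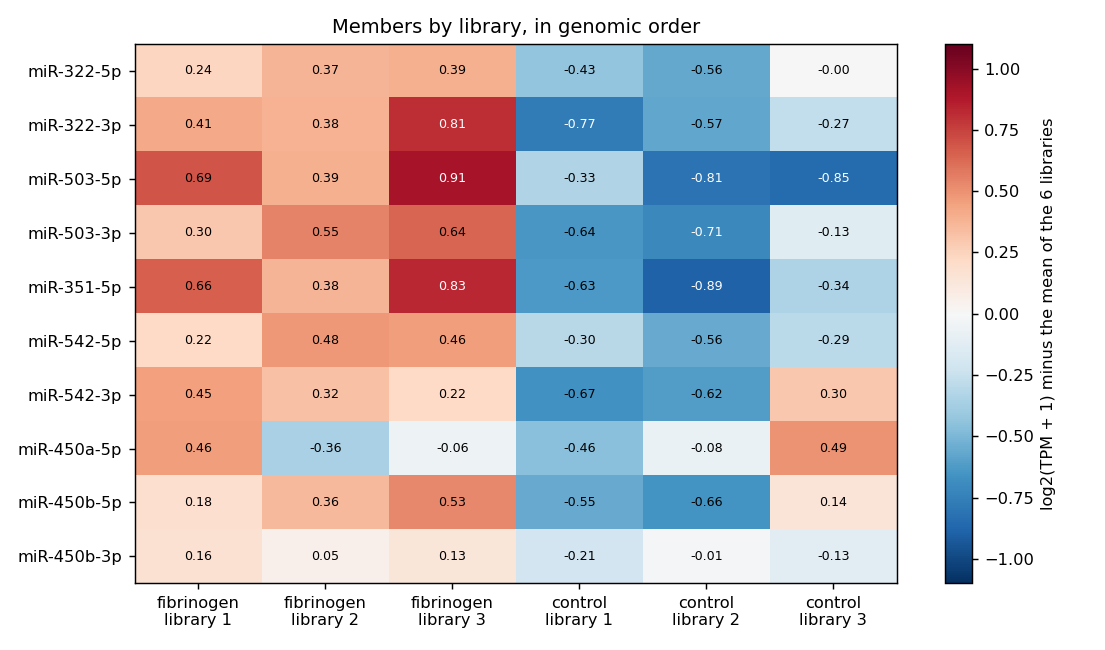
Log2(TPM + 1) of each member in each library minus the mean of that member over the 6 libraries, with red above and blue below the mean. miR-351-5p runs between 0.83 in fibrinogen-treated library 3 and -0.89 in control library 2, whereas miR-450a-5p is at 0.46 in fibrinogen-treated library 1 and 0.49 in control library 3.

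The arm ratios were set within each hairpin, where both arms come from the same precursor and the scaling of the library drops out. Shares are of the reads of both arms, with Wilson 95% intervals for a single library, which cover counting error only. The 5p arm was the abundant arm of miR-322, miR-503, miR-351 and miR-450b, and the 3p arm that of miR-542, in 6 of 6 libraries. The abundant arm began with U for miR-503, miR-351, miR-542 and miR-450b, and with C for miR-322.

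For miR-322, the 3p arm took 3.33%, 2.98% and 4.01% of the reads in fibrinogen-treated libraries and 2.11%, 2.70% and 2.35% in control libraries. Every fibrinogen-treated library was above every control library, with a mean of 3.44% ± 0.528 in fibrinogen-treated OPCs and 2.39% ± 0.298 in control OPCs, so both arms were higher with fibrinogen and the rare arm more so. The intervals of the 5p share overlapped in 5 of the 9 pairs of a fibrinogen-treated with a control library, among them 96.5% to 97.5% in fibrinogen-treated library 2 and 96.5% to 97.9% in control library 2. Among the hairpins this ratio rests on the most reads, 2256 to 5074 in a library.

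For miR-542 the rare arm is 5p, and it took 3.34%, 4.80% and 5.01% of the reads in fibrinogen-treated libraries and 3.75%, 2.33% and 1.94% in control libraries. The mean was 4.39% ± 0.908 in fibrinogen-treated OPCs and 2.67% ± 0.951 in control OPCs, but fibrinogen-treated library 1 lay below control library 1. Its interval there was 2.20% to 5.06%, against 2.05% to 6.76% in control library 1.

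For miR-503, whose arms are nearer in abundance, the 3p arm took 19.0%, 26.3% and 20.9% in fibrinogen-treated libraries and 18.0%, 22.8% and 34.1% in control libraries. The groups overlapped, and control library 3 stood apart: its miR-503-5p was the lowest of the controls and its miR-503-3p the highest, so the 5p share there was 65.9% (58.6% to 72.5%), against 82.0% (75.7% to 87.0%) in control library 1. The mean share of the 3p arm was 22.1% ± 3.80 in fibrinogen-treated OPCs and 24.9% ± 8.27 in control OPCs, a difference within the spread of the libraries.

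For miR-450b, the 3p arm took 28.8% ± 3.63 in fibrinogen-treated OPCs and 37.8% ± 10.3 in control OPCs, and the groups overlapped. The reads were few, 40 to 88 in a library, and the interval of the 5p share in control library 2 ran from 37.5% to 67.1%. For miR-351 the 5p arm took 98.3% to 100% of the reads in fibrinogen-treated libraries and 100% in control libraries, where the lower bound of the interval was 95.2% to 97.5%. Arm use thus differed between hairpins by far more than between groups, with a rare-arm share of a few percent for miR-322 and miR-542 and of about 18.0% to 47.5% for miR-503 and miR-450b.

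**Figure D4:**
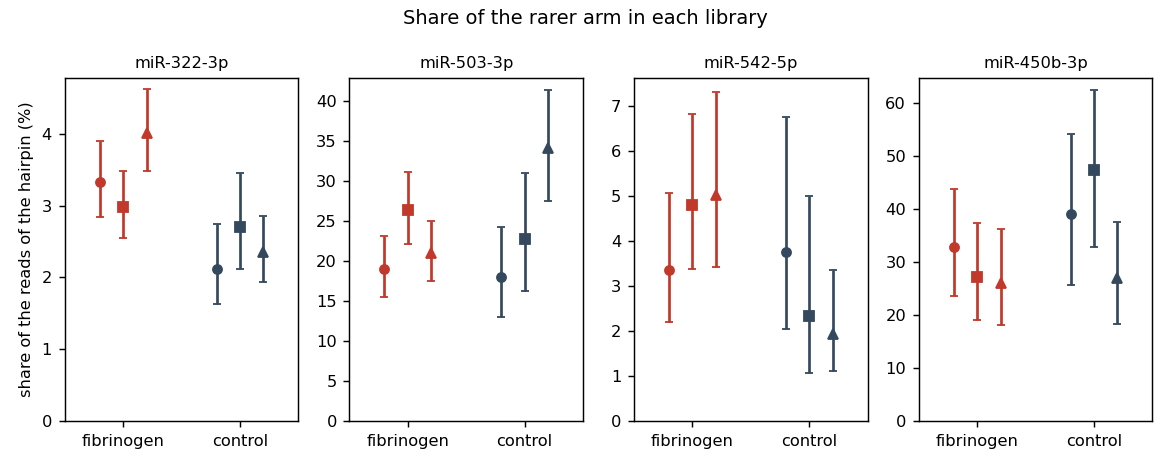
Share of the rarer arm, in percent of the reads of both arms, in each fibrinogen-treated (red) and control (dark blue) library (circle, square and triangle for libraries 1, 2 and 3) for 4 hairpins, with Wilson 95% intervals. Each panel has its own axis from 0. For miR-322-3p every fibrinogen-treated library, 2.98% to 4.01%, is above every control library, 2.11% to 2.70%. In the other panels the groups overlap, and control library 3 has the highest share of miR-503-3p at 34.1%.

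Members that share a seed with abundant miRNAs add little to the pool of that seed. The pool of miR-322-5p, with miR-15a-5p, miR-15b-5p, miR-16-5p, miR-195a-5p and miR-497a-5p, summed to 37451 ± 2374 TPM in fibrinogen-treated OPCs and 32906 ± 5153 TPM in control OPCs. miR-322-5p was 0.926% ± 0.106 of it in fibrinogen-treated OPCs and 0.669% ± 0.0997 in control OPCs, since miR-16-5p alone averaged 35720 ± 2269 TPM in fibrinogen-treated OPCs and 31380 ± 5042 TPM in control OPCs. miR-351-5p, in a pool with miR-125a-5p and miR-125b-5p, was 0.0451% ± 0.00809 of that pool in fibrinogen-treated OPCs and 0.0230% ± 0.00555 in control OPCs. Hairpins of miR-16-5p lie on chromosomes 3 and 14, and those of miR-125b-5p on chromosomes 9 and 16. Their reads may therefore be entered more than once, which would make the shares of both members too low. Among the listed miRNAs with a RefSeq sequence, miR-503-5p had its seed to itself. So did miR-542-3p, miR-450a-5p, miR-450b-5p, miR-322-3p and miR-503-3p. The seeds of predicted miRNAs were not compared.

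The seed relatives were compared in the same fit. Of the 5 members of the miR-15/16 family compared, 0 were called in either direction by limma, edgeR or DESeq2, and 0 had an unadjusted p under 0.05 in limma. Their median log2 fold change was 0.20. The exact seed relatives of miR-351-5p, miR-125a-5p with a log2 fold change of 0.16 (SE 0.16) and miR-125b-5p with 0.39 (SE 0.18), were likewise not called by these tools, and neither had an unadjusted p under 0.05. miR-670-5p, compared with them but without the exact seed, had a log2 fold change of 0.032 (SE 0.20). Another X-linked miRNA cluster, miR-106a-363, was scarcely present, with a summed level of 2.73 to 3.66 TPM in fibrinogen-treated OPCs and 1.87 to 2.77 TPM in control OPCs, and only miR-20b-5p was compared, with a log2 fold change of 0.22 (SE 0.17).

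The muscle miRNAs, which rise with miR-322 and miR-503 when myoblasts differentiate, were looked at in the same way. Of 5 compared, 0 were called by limma, edgeR or DESeq2 and 0 had an unadjusted p under 0.05, and their median log2 fold change was 0.19. The most abundant was miR-1a-3p, at 826 ± 222 TPM in fibrinogen-treated OPCs and 822 ± 273 TPM in control OPCs. miR-206-3p, known from skeletal muscle, averaged 7.93 ± 3.96 TPM in fibrinogen-treated OPCs and 4.70 ± 3.32 TPM in control OPCs, with a log2 fold change of 0.71 (SE 0.45), and its groups overlapped. miR-499-5p, of heart and slow muscle, was the one muscle miRNA whose groups did not overlap, and it was lower, at 12.6 to 13.4 TPM in fibrinogen-treated OPCs and 15.0 to 19.7 TPM in control OPCs, with a log2 fold change of -0.37 (SE 0.17).

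Markers of other cell types in the cultures were set beside the members. Of the 7 mesenchymal and mural miRNAs, 6 were compared, and all 6 had log2 fold changes above 0, where 62.9% of all 607 miRNAs did. Their median was 0.45, while 0 were called by limma, edgeR or DESeq2 and 1 had an unadjusted p under 0.05 in limma. Their summed level was 3208 to 4356 TPM in fibrinogen-treated OPCs and 2438 to 3044 TPM in control OPCs, without overlap, and none was at 0 in every library. The best known, miR-143-3p of smooth muscle and pericytes, averaged 3147 ± 504 TPM in fibrinogen-treated OPCs and 2192 ± 226 TPM in control OPCs. Whether such cells have a part in the level of the cluster was not tested. The summed erythroid miRNAs were 177 to 206 TPM in fibrinogen-treated OPCs and 214 to 702 TPM in control OPCs, also without overlap and in the opposite direction, and the part of blood in the differences was not tested either. Of the 4 erythroid miRNAs, 1 had a log2 fold change above 0. By limma and the edgeR quasi-likelihood test 0 were called, while 2 were called lower by the edgeR exact test and 3 by DESeq2. Over all 607 miRNAs, the edgeR exact test called 10 lower and DESeq2 called 37 lower. The summed microglial and immune miRNAs were 1748 to 2073 TPM in fibrinogen-treated OPCs and 1766 to 2479 TPM in control OPCs, and the endothelial miRNAs 10599 to 13328 TPM in fibrinogen-treated OPCs and 10630 to 14101 TPM in control OPCs, with overlap in both. The immune miRNAs went both ways. miR-142a-3p was lower, at 748 to 930 TPM in fibrinogen-treated OPCs and 967 to 1560 TPM in control OPCs. miR-150-5p was higher, at 357 to 391 TPM in fibrinogen-treated OPCs and 190 to 272 TPM in control OPCs. Of the 6 immune miRNAs, 2 had log2 fold changes above 0 and 0 were called by limma or edgeR. DESeq2 called 1 higher and 2 lower, where over all 607 it called 27 higher and 37 lower.

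Of 361 other miRNAs that averaged 10 TPM or more, 5 were most like the mean profile of the members over the 6 libraries, by the root mean square distance of log2(TPM + 1) after centring. These were miR-700-3p (distance 0.0702), miR-378a-5p (0.0778), miR-99b-5p (0.0895), miR-125b-1-3p (0.110) and miR-99b-3p (0.116). The nearest, miR-700-3p, had 15.5, 13.9 and 17.8 TPM in fibrinogen-treated OPCs and 8.31, 7.99 and 12.2 TPM in control OPCs. It showed the excess of control library 3 over the other controls that most members had. The members themselves were at distances of 0.0911 for miR-322-5p to 0.467 for miR-450a-5p. Both sets of distances are descriptions, since the 5 were picked as the smallest of 361 and members near the detection limit are noisier.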

How the data were processed

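Small RNA of 3 fibrinogen-treated and 3 control OPC cultures was analysed, with groups taken from the sample titles and table columns numbered by mouse within each group. Per the paper's methods and the submitters' processing notes, the authors dropped low-quality reads, cut off adapters (cutadapt 1.15), collapsed duplicate reads by in-house code, aligned what was left by Bowtie 1.1.2, and counted known miRNAs of miRBase and predicted others by miRDeep2. The notes name mm10 as the build and edgeR 3.12.1 for the authors' comparison, while the methods name another build. The table has no coordinates. The values deposited by the authors are called TPM but are RPM: in each library they are whole multiples of a step of 0.0669 to 0.0841 TPM and sum to 972508 to 1007870. Division by the step gave whole reads, within 0.1, for 99.8% to 100% of the values above 0. A miRNA cut from several hairpins may have its reads listed more than once.

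In R 4.3.3, limma 3.58.1 (lmFit, then eBayes using a trend) was run on log2(TPM + 1), with a pseudocount of 1. A miRNA entered where 3 or more libraries reached 1 TPM, which left 514 known and 93 predicted miRNAs. p was adjusted by Benjamini-Hochberg over all 607, with a threshold of 0.05. Errors are SDs over libraries or limma's standard errors. Count tests on the recovered reads, with edgeR 4.0.16 (exact and quasi-likelihood) and DESeq2 1.42.0, were alternatives, beside other pseudocounts, filters, scalings, a correction for precursor GC content, a replicate block and leaving out each library. The fit was tested on simulated data. The members, the lists and the alternatives were chosen with earlier results of these data known. All members and the other arms of their hairpins were named, with the 5 most alike miRNAs and, for lists, members among the 4 most abundant. Sequences and coordinates are from RefSeq GRCm38.p6. The hairpin of miR-351 was not analysed here.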

Additional observations from a re-analysis of the deposited data

How the results depend on the processing

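Of the 10 members, 9 had a log2 fold change above 0 under every one of the 18 alternatives in which they were compared. The exception was miR-450a-5p, at -0.071 with median-of-ratios scaling, -0.061 with TMM scaling, -0.12 with the edgeR exact test, -0.12 with the edgeR quasi-likelihood test and -0.12 with DESeq2, and between -0.19 and 0.28 when 1 library was left out. It was at -0.19 without fibrinogen-treated library 1, -0.19 without control library 1 and -0.002 without control library 2. The number of members called higher, 3 as reported, was 0 without a filter on low values, 1 by edgeR's quasi-likelihood test (miR-351-5p), 5 by DESeq2 (both arms of miR-322 and miR-503, and miR-351-5p) and 0 with a correction for precursor GC content. It was 2 with median-of-ratios scaling, TMM scaling or a minimum of 10 TPM (miR-503-5p and miR-351-5p in each) and 4 by the edgeR exact test, which added miR-503-3p. It ran from 0 to 7 when 1 library was left out, and miR-542-5p was then below the filter in each case without a fibrinogen-treated library. No member was called lower under any alternative. miR-503-5p was called in 11 of 18 alternatives, miR-351-5p in 10 of 16 and miR-322-3p in 7 of 18.

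The median log2 fold change of the members, 0.74 as reported, was 1.06 with a pseudocount of 0.1, 1.07 with a minimum of 10 TPM, which left 5 members, and 0.54 with the GC correction, which covered 9 members and 81.1% of the known miRNAs. It ran from 0.62 to 0.97 when 1 library was left out, with 0.97 without control library 3. The GC correction was also set beside the same 417 miRNAs without it, a comparison chosen after seeing the data, in which 3 members were called (miR-322-3p, miR-503-5p and miR-542-5p). Over all miRNAs compared, calls were 13 higher and 4 lower as reported, 27 and 37 by DESeq2, 12 and 10 by the edgeR exact test, 8 and 4 by the quasi-likelihood test, 8 and 3 without a filter, 1 and 1 with the GC correction, and 0 to 39 higher and 0 to 6 lower when 1 library was left out, with the 39 without control library 3. Where the causes of these changes are not given by the construction of the alternative, the cause was not tested.

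Libraries of the groups share the numbers 1 to 3. They were not paired, because no source used here says whether a number stands for the same mouse in both groups. Deviations from the group means correlated at 0.0377, 0.233 and 0.124 for libraries of the same number and at -0.195 to 0.0876 for others. The values 0.233 and 0.124 were above those of all other pairs, so these correlations do not decide whether the libraries are paired. With the replicate block, 3 members were called higher, 0 lower, and 11 miRNAs were higher and 4 lower over all. When 1 library was left out, each mean arm share stayed within the SD between libraries. With 3 libraries in a group this outcome is fixed by the arithmetic, so nothing is read from it. Pooling the reads of a group also gave shares within that SD, such as 64.8% against a mean of 62.2% for the 5p arm of miR-450b in control OPCs. At 6 to 29 reads in a library, miR-542-5p is limited by depth, as are miR-450b-3p and the rare 3p arms.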
